A study of Mus musculus with 6 samples.

Results

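Myt1, Myt1l and St18 are the 3 mouse genes of the Myt family, transcription factors with clusters of zinc fingers. They were taken by gene symbol and are 3 of 54119 annotated genes in the joined table, of which 16430 had enough reads to be tested. The data are messenger RNA sequences from pancreatic islets, the clusters of hormone-secreting cells of the pancreas. Islets came from male C57BL/6 mice at postnatal day 24, soon after weaning. In the control group were 3 mice, labelled only as control for genotype, and in the knockout group 3 mice labelled Dpy30 knockout, with each library made from the islets of 1 mouse. Dpy30 encodes a core subunit shared by the enzyme complexes that place methyl groups on lysine 4 of histone H3, a mark of active promoters and enhancers. The labels do not name the Cre driver or the exons removed from Dpy30, so which islet cells lost the gene cannot be read from them.

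Myt family proteins bind DNA through fingers in which zinc is held by cysteine, cysteine, histidine and cysteine, and they recruit repressor complexes that contain Sin3, histone deacetylases and the H3K4 demethylase LSD1. Myt1 is switched on in endocrine progenitors downstream of Neurog3 and acts with it in forming endocrine cells. Myt1l is best known from neurons, where it keeps non-neuronal genes and the Notch pathway silent, and St18 is named for its suppression of tumour growth in breast cells. In beta cells, the insulin-producing cells, the family has been linked to keeping stress-response genes in check after birth.

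The fingers show what makes these 3 genes a family, and where St18 differs from the others. The coding sequences were searched, codon by codon, for a finger pattern. It has cysteine, cysteine, histidine, histidine and cysteine in that order, with prolines near its start. Myt1-202 held 7 matches, Myt1l-202 held 6 and St18-201 held 5. A finger that departs from the pattern was not counted, so these need not be the full numbers of fingers. In St18-201 the first match began at codon 366, whereas the other two genes had a match near the start of the protein as well. The finger below was the most alike across the family, and it lies within 1 coding exon in each gene, exon 8 of 23 in Myt1-202, exon 11 of 25 in Myt1l-202 and exon 9 of 24 in St18-201. Capitals mark the codons for the cysteines and histidines of the pattern, and which histidine holds the zinc is not marked. All sequences are from GENCODE vM21 transcripts on GRCm38, plus strand, 5′ to 3′.
Myt1, codons 444 to 468, chr2:181801049-181801123: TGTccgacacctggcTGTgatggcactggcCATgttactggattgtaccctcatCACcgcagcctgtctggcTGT
Myt1l, codons 507 to 531, chr12:29832320-29832394: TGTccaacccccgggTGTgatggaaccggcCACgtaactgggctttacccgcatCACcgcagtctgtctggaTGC
St18, codons 366 to 390, chr1:6807575-6807649: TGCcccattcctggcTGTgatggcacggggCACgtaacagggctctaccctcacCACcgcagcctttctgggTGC
Over these 75 bases Myt1 and Myt1l shared 60 (80.0%), and St18 shared 59 (78.7%) with each of them.

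The match near the start of the coding sequence is shown next because the search found none there in St18-201. It spans the junction of 2 exons, exons 5 and 6 in Myt1-202 and exons 8 and 9 in Myt1l-202, so the genome interval includes an intron.
Myt1, codons 30 to 54, chr2:181794767-181795659: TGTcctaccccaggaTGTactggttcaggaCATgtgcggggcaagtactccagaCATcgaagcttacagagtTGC
Myt1l, codons 31 to 55, chr12:29784252-29811385: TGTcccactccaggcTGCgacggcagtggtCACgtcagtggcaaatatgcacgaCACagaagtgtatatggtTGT
These shared 46 of 75 bases (61.3%), fewer than the finger above. A missing match says only that the searched pattern is not in that coding sequence.

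The libraries held 17131515 to 25354384 estimated reads. Reads summed over all Dpy30 transcripts did not differ between the groups by the test used here, with a log2 fold change of 0.40 (SE 0.23, edgeR quasi-likelihood adjusted p = 0.298, n = 3 per group). The labels were checked on transcripts instead. Transcripts that skip exon 4 of Dpy30 (143 bases) held 80.5 to 82.2% of its reads in the knockout libraries and 0.438 to 5.24% in the controls. Knockout replicate 2 stood apart, with the fewest reads and with 158399 CPM (counts scaled to library size) of the RNA Gm42418 against 1015 to 2145 in the other libraries. Without that library the log2 fold changes were -1.31 for St18, -1.33 for Myt1 and -0.43 for Myt1l, close to those with it.

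St18 and Myt1 were lower in the knockout islets, at 38.9% and 39.9% of the control level in CPM on scaled library sizes, and both passed the test. Myt1l, at 74.8% of the control level, did not pass. So 2 of the 3 members were called lower and 0 higher, where 1634 of 16430 tested genes (9.95%) were called, 960 (5.84%) lower and 674 (4.1%) higher. All calls use edgeR's quasi-likelihood test with p-values adjusted over all tested genes and a threshold of 0.05, and each value is a mean over 3 mice per group. In whole islets, fewer cells of a type and less RNA per cell cannot be told apart.

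**Figure D1:**
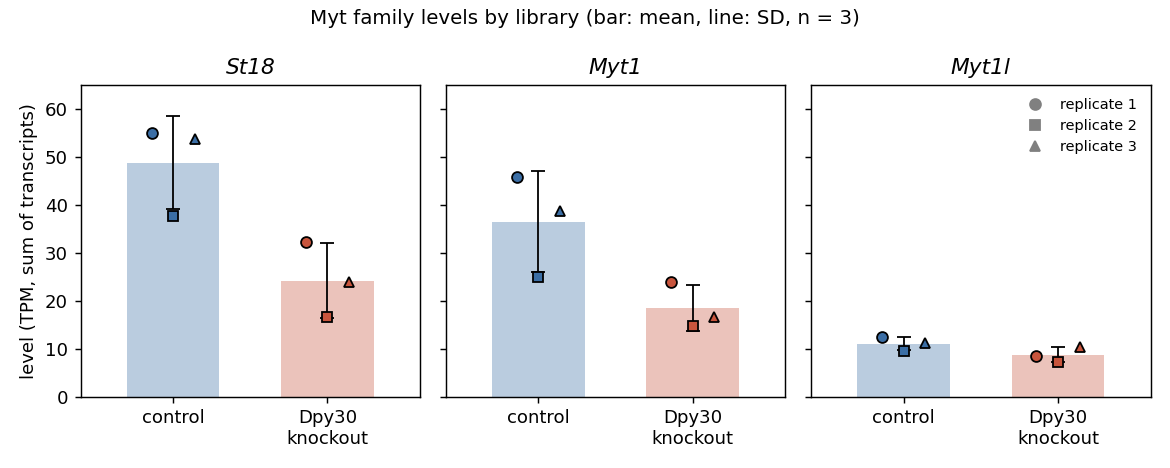
Level of each gene in TPM (a level scaled by transcript length and library total, vertical axis) in the control and Dpy30 knockout libraries. Points are single mice with their replicate number by shape, bars are group means and lines are SD (n = 3); St18 and Myt1 points of the knockout all lie below those of the controls, while Myt1l points of the groups overlap.

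St18 lies on chromosome 1 (6487231 to 6860940, plus strand, ENSMUSG00000033740.17) and has 13 annotated transcripts. Its level was 54.9, 37.6 and 53.7 TPM in control replicates 1 to 3, and 32.3, 16.5 and 23.8 TPM in knockout replicates 1 to 3. Every knockout library was below every control library on this scale, which corrects for transcript length. In CPM the controls had 217, 169 and 176 (187 ± 26.2, SD, n = 3), and the knockouts had 85.3, 66.9 and 66.3 (72.8 ± 10.8, SD, n = 3). The groups were far apart here, with the lowest control library well above the highest knockout library. The fitted log2 fold change was -1.36 (SE 0.17, edgeR adjusted p = 0.00365), and 557 of the 16430 tested genes had a more negative one. In control islets 91.2% of tested genes had a lower TPM than St18, and in knockout islets 76.1% did.

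Myt1 lies on chromosome 2 (181763332 to 181827797, plus strand, ENSMUSG00000010505.16) and has 12 annotated transcripts. Its level was 45.8, 25.0 and 38.6 TPM in control replicates 1 to 3, and 23.9, 14.8 and 16.6 TPM in knockout replicates 1 to 3. The groups did not overlap, but the highest knockout library lay just under the lowest control library. In CPM the controls had 157, 95.3 and 108 (120 ± 32.5, SD, n = 3), and the knockouts had 56.8, 48.4 and 38.5 (47.9 ± 9.21, SD, n = 3). Control replicate 1 was well above the other controls, which makes Myt1 the member with the widest spread among controls. The fitted log2 fold change was -1.32 (SE 0.23, edgeR adjusted p = 0.0116), with 595 tested genes more negative. Without control replicate 1 it was -1.09 (adjusted p = 0.0233), and without knockout replicate 3, the lowest library in CPM, it was -1.19 and no longer passed (adjusted p = 0.0516).

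Myt1l is the longest of the 3 loci, on chromosome 12 (29528384 to 29923213, plus strand, ENSMUSG00000061911.15), with 11 annotated transcripts. Its level was 12.5, 9.58 and 11.2 TPM in control replicates 1 to 3, and 8.55, 7.22 and 10.4 TPM in knockout replicates 1 to 3. On this scale the groups overlapped, since knockout replicate 3 was above control replicate 2. In CPM the controls had 57.0, 47.2 and 52.6 (52.3 ± 4.87, SD, n = 3), and the knockouts had 36.2, 39.9 and 41.3 (39.1 ± 2.67, SD, n = 3). In CPM the groups did not overlap. The log2 fold change of -0.42 (SE 0.13) did not pass after adjustment (edgeR adjusted p = 0.0821). With an offset for the average length of the expressed transcripts it was -0.64 and passed (adjusted p = 0.0389).

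The 2 scales differ because the median log2 ratio of knockout over control TPM across tested genes was 0.33, whereas the median fitted log2 fold change was 0.006. Falls read from TPM are therefore smaller than the fitted ones. The authors' deposited table gives log2 fold changes of -1.29 for St18, -1.21 for Myt1 and -0.58 for Myt1l, with adjusted p-values of 6.45e-11, 9.24e-07 and 0.00494. In that table Myt1l has an adjusted p below 0.05, unlike in the fit here.

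In TPM the order St18, Myt1, Myt1l held in all 6 libraries. St18 and Myt1 were the nearer neighbours, at 48.7 ± 9.68 and 36.5 ± 10.5 TPM in controls (SD, n = 3), with ranges that overlapped. Myt1l, at 11.1 ± 1.44 TPM, was below every library of the others in the control group. Among 21 islet transcription factor genes ranked by mean TPM, St18 moved from rank 8 in control to rank 12 in knockout islets, Myt1 from 12 to 14, and Myt1l stayed at 16. In controls St18 stood between Pdx1 (69.8 TPM) and Rfx6 (47.0 TPM), both regulators of beta cells.

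Whether Myt1l differed less than the others was tested within libraries, as the difference in log2 CPM between 2 members. Myt1 exceeded Myt1l by 1.46, 1.01 and 1.03 in the control libraries and by 0.65, 0.28 and -0.10 in the knockout libraries. St18 exceeded Myt1l by 1.93, 1.83 and 1.74 in the controls and by 1.24, 0.75 and 0.68 in the knockouts. Neither pair overlapped between groups, and in knockout replicate 3 Myt1 was no longer above Myt1l in CPM. The knockout minus control difference of the gap was -0.89 on the log2 scale for Myt1 and -0.95 for St18, each with an exact permutation p of 0.1, the smallest that 3 against 3 allows (0.15 adjusted over 3 pairs). For St18 against Myt1 it was -0.06 (exact permutation p = 0.7). These gaps come from the same libraries as the fold changes above, and CPM is not corrected for transcript length. With the length offset the fitted log2 fold changes were nearer to each other, at -0.64 for Myt1l, -1.28 for Myt1 and -1.34 for St18.

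As shares of the family's summed TPM, Myt1l took 11.7 ± 1.38% in controls and 17.5 ± 3.78% in knockouts (SD, n = 3, exact permutation p = 0.2). St18 took 50.8 ± 1.98% and 46.6 ± 3.53% (p = 0.2, exact), and Myt1 took 37.5 ± 2.90% and 36.0 ± 3.02% (p = 0.6, exact). None of these shares differed beyond what 3 against 3 can show. Over the 6 libraries the log2 CPM of St18 and Myt1 had a Pearson r of 0.98, that of Myt1 and Myt1l 0.88 and that of Myt1l and St18 0.89. After removing each group's mean the values were 0.91, 0.26 and 0.08, so St18 and Myt1 also varied together within groups and Myt1l did not follow them. This likeness was not particular to the pair. Among 10911 protein-coding genes St18 ranked 328th for likeness to Myt1 within groups, and Myt1 ranked 511th for likeness to St18. These are descriptions over 6 libraries that share their islets and depth. In both groups Myt1 and St18 were highest in replicate 1, whereas Myt1l was highest in control replicate 1 and lowest in knockout replicate 1.

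In both groups replicate 1 was also the highest library for 6 of the 14 listed stress-response genes, Atf3, Atf4, Ddit3, Herpud1, Hspa5 and Trib3. How many of all tested genes have this pattern was not counted. Over all tested genes the replicate 1 libraries of the groups were also alike in their deviations from group means (Pearson r 0.427). Replicate 3 was the highest in both groups for 3 heat shock genes, Hspa8, Hsph1 and Hsp90aa1, and Hspa1a and Hspa1b were highest in control replicate 3 and knockout replicate 2. Atf3, an immediate stress-induced factor, was at 529.8, 0.22 and 27.8 CPM in control replicates 1 to 3 and at 430.9, 38.8 and 26.5 CPM in knockout replicates 1 to 3. Ddit3, a factor of the unfolded protein response, was at 85.8, 12.3 and 20.7 CPM in the controls and at 33.6, 17.6 and 14.5 CPM in the knockouts. Atf3 and Ddit3 were picked out after their values were seen. The part of these differences in the family's levels was not tested. Without knockout replicate 1, the log2 fold changes were -1.49 for St18 (adjusted p = 0.00907) and -1.47 for Myt1 (adjusted p = 0.0248), and without control replicate 1 St18 was at -1.25 (adjusted p = 0.0116). With the replicate number as a block, St18 was at -1.36 (adjusted p = 0.00276) and Myt1 at -1.31 (adjusted p = 0.00443).

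**Figure D2:**
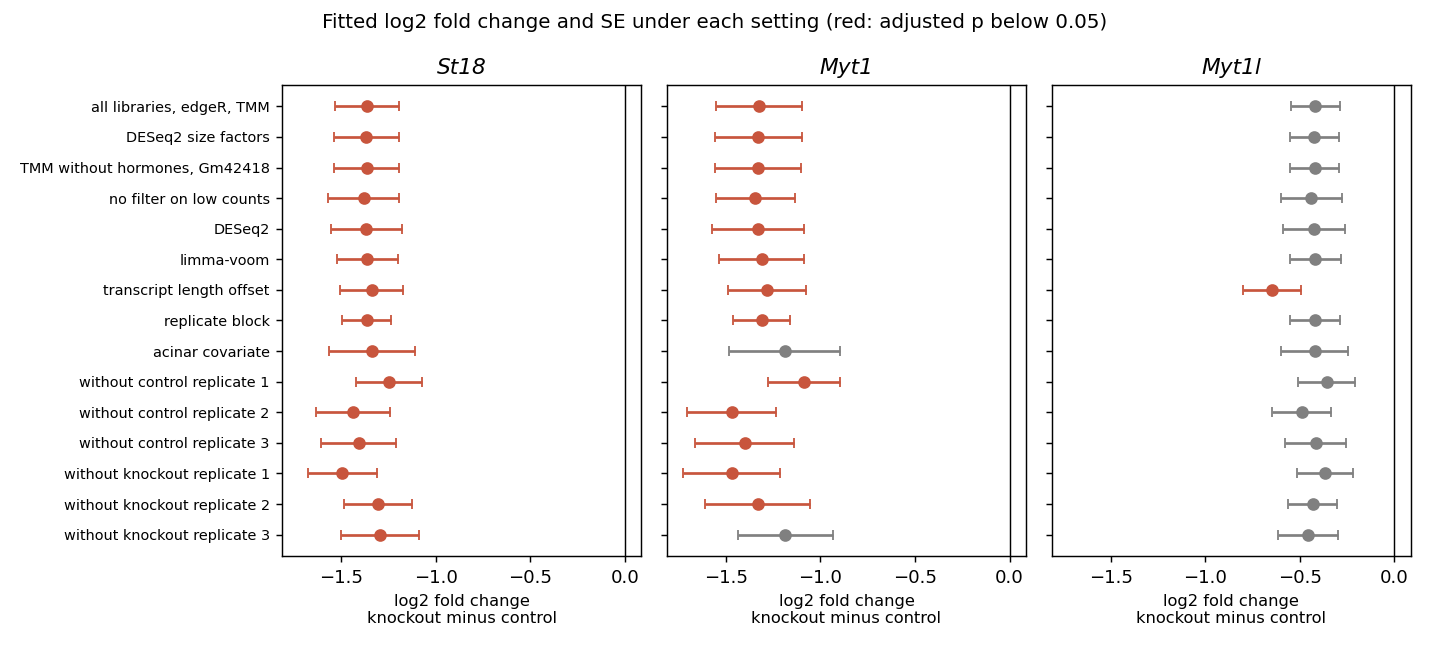
Fitted log2 fold change of each gene, knockout minus control (horizontal axis), under each way of processing (vertical axis); points are estimates, lines are SE and red marks an adjusted p below 0.05. St18 stayed red throughout, Myt1 turned grey with the acinar covariate (-1.19) and without knockout replicate 3 (-1.19), and Myt1l was red only with the transcript length offset (-0.64).

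Transcripts were examined next, with reads that fit several transcripts shared out among them by Salmon. Of 36 annotated family transcripts 20 had enough reads for the test, and 2 were called lower, both of St18. Across all 42104 tested transcripts 175 (0.416%) were called, 127 (0.302%) lower and 48 (0.114%) higher. Leaving out any 1 library, or adding the replicate block, removed every transcript call, for the family and for all transcripts. The transcript calls therefore need all 6 libraries.

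St18 was read from starts deep in its locus. The transcripts that begin at its far upstream end held 0 reads except for 26.8 in knockout replicate 3. A group of starts at 6730051 to 6730102, 242.8 kb further in, held 65.5, 62.6 and 49.6% of St18 reads in the control libraries and 62.6, 48.4 and 53.6% in the knockout libraries. The start at 6737575, 250.3 kb in, held most of the rest, 39.3 ± 7.76% in controls and 43.9 ± 7.13% in knockouts (SD, n = 3). The groups overlapped for both starts (exact permutation p = 0.5 for each), so the split of St18 reads between them was not shown to differ. All tested full-length coding transcripts of St18 encode 1045 codons and hold the same 5 finger matches.

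St18-212 was at 14.3, 9.93 and 13.3 TPM in control replicates 1 to 3 and at 7.16, 4.18 and 4.77 TPM in knockout replicates 1 to 3, without overlap. It fell by 1.53 on the log2 scale (SE 0.18, edgeR adjusted p = 0.0374). St18-213, from the start at 6737575, was at 12.5, 8.86 and 14.5 TPM in the controls and at 7.37, 5.02 and 6.66 TPM in the knockouts, also without overlap. It fell by 1.22 on the log2 scale (SE 0.16, edgeR adjusted p = 0.0486). St18-201, with a value of -1.42 (SE 0.45), had overlapping groups and did not pass (adjusted p = 0.275). The 7 tested St18 transcripts all had negative values. St18-210 is a minor coding transcript with 14.2, 38.2 and 33.7 reads in the controls and 0 in every knockout library, and it did not pass (adjusted p = 0.0872).

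**Figure D3:**
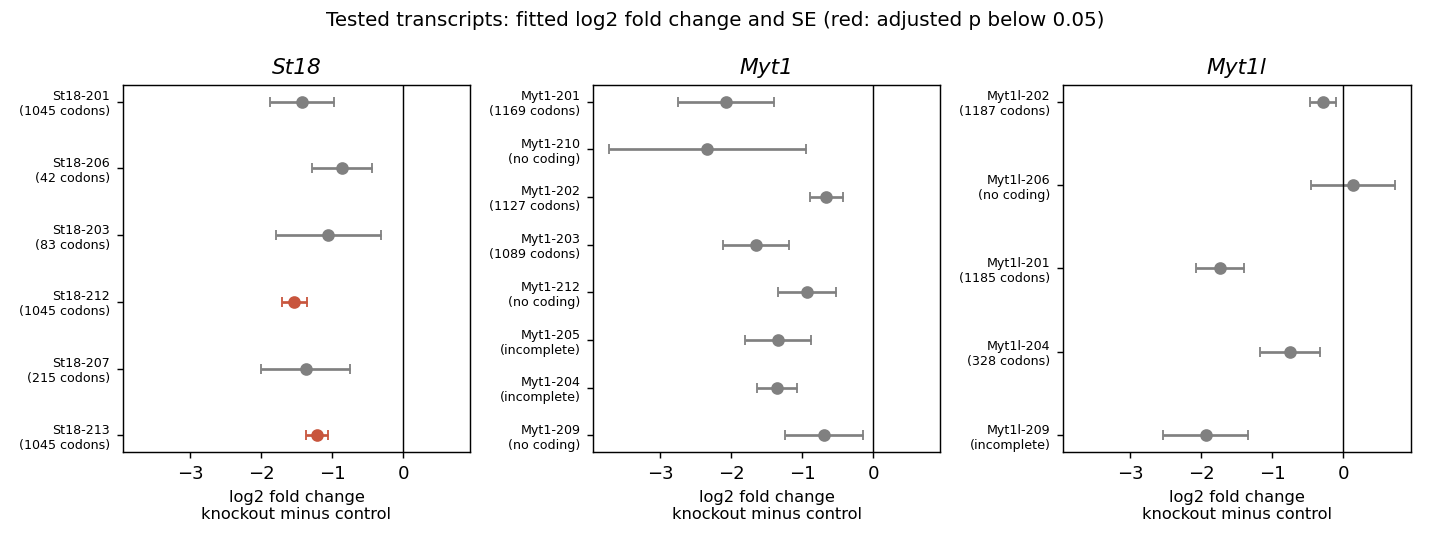
Fitted log2 fold change of each tested family transcript, knockout minus control (horizontal axis), with SE as lines; transcripts are listed with the length of their coding sequence, and red marks an adjusted p below 0.05. St18-212 and St18-213 are red, and Myt1l-206 is alone in lying to the right of 0. St18-210 is left out because it had no reads in the knockout.

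All 8 tested Myt1 transcripts had negative values and 0 passed. They are described here by annotated start. Myt1-201, from the first start at 181763332, encodes 1169 codons, while Myt1-202 and Myt1-203, from the second group of starts at 181767029 to 181767512, encode 1127 and 1089 codons. Each holds the same number of finger matches, 7. Myt1-201 was at 9.47, 2.99 and 7.30 TPM in the controls and at 3.75, 1.44 and 0.59 TPM in the knockouts. Its knockout libraries were mostly lower but overlapped the controls, and its log2 value of -2.08 had a wide SE of 0.68 (edgeR adjusted p = 0.283). Myt1-202 was at 5.84, 4.74 and 4.42 TPM in the controls and at 5.52, 2.17 and 4.60 TPM in the knockouts. These groups overlapped broadly, and the log2 value was -0.66 (SE 0.23, edgeR adjusted p = 0.324). Myt1-203, of the same start group, was at 5.61, 2.17 and 2.34 TPM in the controls and 0.94, 1.46 and 1.35 TPM in the knockouts. Its groups did not overlap (log2 value -1.65, SE 0.47, edgeR adjusted p = 0.227). Myt1-204, whose annotated start is incomplete, did not overlap either (log2 value -1.35, SE 0.29, edgeR adjusted p = 0.117). The values thus did not divide clearly by start. The first start held 33.5, 20.5 and 37.5% of Myt1 reads in the controls and 26.8, 19.3 and 6.34% in the knockouts. The groups overlapped (30.5 ± 8.90% against 17.5 ± 10.3%, SD, n = 3, exact permutation p = 0.2).

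Of 7 family starts that held at least 5% of their gene's reads on average, 2 had shares that did not overlap between the groups, both of Myt1l. Over all tested genes with several such starts, 1223 of 9797 starts (12.5%) did not overlap. The first Myt1l start, at 29528384 to 29528401, held 77.8, 69.9 and 77.8% of Myt1l reads in the control libraries and 87.6, 89.9 and 88.6% in the knockout libraries. The start at 29534586 to 29534615, 6.2 kb further in, held 14.8, 22.7 and 16.6% in the controls and 8.04, 4.51 and 8.35% in the knockouts. The means were 75.2 ± 4.57% and 88.7 ± 1.14% for the first start, and 18.0 ± 4.14% and 6.97 ± 2.13% for the 6.2 kb start (SD, n = 3, exact permutation p = 0.1 for each, the smallest possible). By TPM the first start took 50.8 ± 7.17% of the gene in controls and 73.2 ± 0.54% in knockouts, again without overlap (SD, n = 3, exact permutation p = 0.1). Shares of the same gene are tied to each other, so the starts are not independent results. Of the other Myt1l starts, the one at 29533385, between these, held at most 0.297% of the reads in any library.

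**Figure D4:**
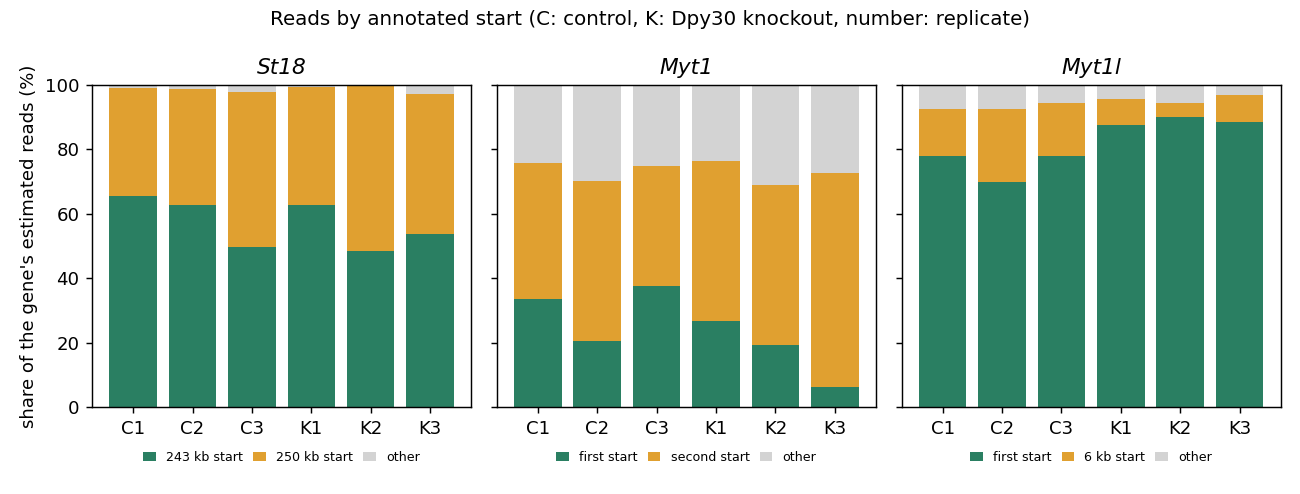
Share of each gene's estimated reads (percent, vertical axis) by annotated start in each library (horizontal axis, control C1 to C3 and knockout K1 to K3). The orange 6.2 kb start of Myt1l is 14.8 to 22.7% in controls and 4.51 to 8.35% in knockouts, whereas the plotted St18 and Myt1 starts have shares that overlap between groups.

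The main coding transcripts of Myt1l belong to these starts. Myt1l-202, from the first start and encoding 1187 codons, was at 5.55, 3.33 and 4.62 TPM in the controls and at 5.15, 3.02 and 5.70 TPM in the knockouts. The groups overlapped almost completely, with a log2 value of -0.28 (SE 0.18, edgeR adjusted p = 0.639). Myt1l-201, from the 6.2 kb start and encoding 1185 codons, was at 1.61, 1.73 and 1.67 TPM in the controls and at 0.76, 0.30 and 0.89 TPM in the knockouts. The control libraries were close together and all above the knockouts, with a log2 value of -1.74 (SE 0.34), which did not pass over all transcripts (edgeR adjusted p = 0.0959). Among transcripts with the full coding sequence, Myt1l-201 took 22.5, 34.2 and 26.6% in the controls and 12.0, 7.83 and 13.5% in the knockouts, with no overlap (exact permutation p = 0.1). Both transcripts hold the same 6 finger matches.

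An antisense gene, Gm20208, on the minus strand from 29526906 to 29534891 of chromosome 12, overlaps both of these Myt1l starts. It had 309.5, 348 and 343 reads in the controls and 194, 200 and 202 in the knockouts, not scaled to library size. In CPM it was at 12.9, 15.0 and 14.1 in the controls and at 7.79, 12.6 and 7.60 in the knockouts. Knockout replicate 2 thus lay just under the lowest control. The log2 fold change was -0.59 (SE 0.24, edgeR adjusted p = 0.154), or -0.86 without knockout replicate 2, where it passed (adjusted p = 0.0353). The library kit keeps strand, but the strand setting of the counting was not given in the sources used here, so overlapping reads of Myt1l and Gm20208 cannot be told apart with certainty.

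Promoters of the Myt1l and Myt1 starts that held most of the reads are shown to go with the starts described above. St18 had no entry among the RefSeq promoters used here, so none is shown for it. Each window is the 250 bases before a RefSeq start on GRCm38.p6, plus strand. Capitals mark AAGTT, or AACTT where it lies on the other strand, the core of the sequence that Myt family fingers bind.
Myt1l first start, chr12:29528134-29528383: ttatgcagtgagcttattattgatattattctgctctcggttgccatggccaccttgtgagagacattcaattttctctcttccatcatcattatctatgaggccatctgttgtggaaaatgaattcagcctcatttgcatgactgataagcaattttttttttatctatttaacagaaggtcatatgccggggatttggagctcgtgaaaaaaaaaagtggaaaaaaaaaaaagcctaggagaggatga
Myt1l 6.2 kb start, chr12:29534352-29534601: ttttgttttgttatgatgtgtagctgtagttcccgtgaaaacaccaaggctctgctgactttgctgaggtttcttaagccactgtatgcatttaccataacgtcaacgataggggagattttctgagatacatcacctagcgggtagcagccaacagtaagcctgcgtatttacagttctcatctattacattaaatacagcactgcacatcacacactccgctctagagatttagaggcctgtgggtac
Myt1 first start, chr2:181763082-181763331: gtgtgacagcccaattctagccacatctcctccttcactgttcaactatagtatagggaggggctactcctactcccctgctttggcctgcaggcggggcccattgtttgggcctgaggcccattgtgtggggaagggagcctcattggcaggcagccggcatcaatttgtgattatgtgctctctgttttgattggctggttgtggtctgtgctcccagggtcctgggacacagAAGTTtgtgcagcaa
Myt1 second start, chr2:181766779-181767028: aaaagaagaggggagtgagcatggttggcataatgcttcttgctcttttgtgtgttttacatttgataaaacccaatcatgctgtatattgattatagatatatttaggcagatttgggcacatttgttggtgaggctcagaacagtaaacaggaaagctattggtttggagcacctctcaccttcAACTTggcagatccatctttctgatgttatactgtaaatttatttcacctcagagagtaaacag

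Each printed Myt1 window held 1 match to AAGTT on either strand and each printed Myt1l window held 0. Of all RefSeq windows of these genes, 3 of 3 for Myt1 and 2 of 5 for Myt1l held a match, the 2 of Myt1l being those before the starts at 29534905 (1 match) and 29535222 (2 matches). Of 32851 RefSeq promoter windows of this length 35.3% hold at least 1. The longer AAAGTTT was in none of the printed windows and in 1 of the 8, a Myt1 window before the start at 181796307, and 4.2% of all windows hold it. The printed Myt1l windows held 3 CG pairs at the first start and 6 at the 6.2 kb start, and the printed Myt1 windows held 2 and 0, beside a median of 6 over all windows. Of the 8 windows 5 were poorer in CG pairs than the median promoter, all 3 of Myt1 and 2 of the 5 of Myt1l. These counts describe letters in the windows and do not show binding.

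The corepressor genes were looked at next because Myt family proteins act through them. The list held Sin3a and Sin3b, the scaffolds of the Sin3 complex, Hdac1 and Hdac2, histone deacetylases, Kdm1a, which encodes LSD1, and Rcor1, Rcor2 and Rcor3, its CoREST partners. Of 8 tested, 0 were called lower and 0 higher by edgeR, by DESeq2 and by limma-voom, while 3 had an unadjusted p below 0.05. How many of all tested genes have such an unadjusted p was not counted, here or for the lists below. These counts therefore show no difference from other genes. Their median log2 fold change was -0.22, beside 0.006 over all tested genes. Kdm1a was at 132.8, 133.5 and 132.1 CPM in the controls and at 101.5, 109.9 and 103.5 CPM in the knockouts. These groups did not overlap, yet the log2 value of -0.34 did not pass (edgeR adjusted p = 0.113).

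Rcor3 was at 43.3, 41.0 and 45.9 CPM in the controls and at 31.0, 31.6 and 37.2 CPM in the knockouts, again without overlap (log2 value -0.38, edgeR adjusted p = 0.105). Hdac1 lay on the other side, with 74.4, 77.1 and 85.3 CPM in the controls and 94.4, 110.6 and 90.0 CPM in the knockouts (log2 value 0.32, edgeR adjusted p = 0.180). The other members had values of -0.43 for Rcor2, -0.26 for Hdac2, -0.18 for Rcor1, 0.12 for Sin3b and 0.03 for Sin3a. All of the corepressor genes were thus expressed in both groups, and the difference at each was smaller than that of St18 or Myt1.

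The islet transcription factor list held 20 genes, 18 of them tested. Of these 5 were called lower (7 with the replicate block) and 0 higher, and the median log2 fold change was -0.42. Among all tested genes 5.84% were called lower and 4.1% higher, which is the background for the counts of each list here. Isl1, needed for islet cell maturation, fell by 1.17 on the log2 scale (SE 0.13, edgeR adjusted p = 0.00226). Pax6 fell by 0.80 (adjusted p = 0.0440), Rfx6 by 0.66 (adjusted p = 0.0305) and Nkx2-2 by 0.59 (adjusted p = 0.0277). St18 and Myt1 had larger fitted falls than any of these named genes. Neurog3, which acts upstream of Myt1 in progenitors, was low in both groups at 5.85 ± 2.10 and 5.05 ± 1.72 CPM (SD, n = 3), with a log2 value of -0.22 (SE 0.37, edgeR adjusted p = 0.747). Without any 1 library except knockout replicate 2, only 1 or 2 of the listed factors were called lower. Isl1 passed under all 14 alternatives tried, whereas Pax6 lost its call when any 1 library was left out (adjusted p of 0.0696 to 0.144).

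Of 14 heat shock and stress-response genes, 0 were called lower and 0 higher by edgeR, with 2 at an unadjusted p below 0.05 and a median of -0.24. By DESeq2 1 was called higher and by limma-voom 0. The smallest p belonged to Hspb1, a small heat shock protein, at 9.56, 5.04 and 13.6 CPM in the controls and 14.2, 20.5 and 19.0 CPM in the knockouts (log2 value 0.92, SE 0.34, edgeR adjusted p = 0.128). Its knockout libraries were all above the controls. Herpud1, a gene of the endoplasmic reticulum stress response, was at 585.1, 194.6 and 196.0 CPM in the controls and at 207.5, 137.8 and 124.5 CPM in the knockouts. Control replicate 1 was far above the rest, and the log2 value was -1.05 (SE 0.44, edgeR adjusted p = 0.168), or -0.88 with the replicate block, where it passed (adjusted p = 0.0447). Trib3 and Hspa8 had values of -1.88 (adjusted p = 0.213) and 0.42 (adjusted p = 0.272).

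Of 13 Notch pathway genes 12 were tested, 1 was called lower and 0 higher, and the median was 0.14. The called gene was Jag2, a Notch ligand, at 35.8, 37.6 and 38.4 CPM in the controls and 15.7, 18.2 and 19.4 CPM in the knockouts. It fell by 1.07 on the log2 scale (SE 0.14, edgeR adjusted p = 0.00417), with tight groups that did not overlap. Hey1, a Notch target, was at 2.09, 3.62 and 4.72 CPM in the controls and 5.02, 4.85 and 8.01 CPM in the knockouts (log2 value 0.78, SE 0.36, edgeR adjusted p = 0.204). Its knockout libraries were all above the controls, but at a low level. Dll1, a ligand marking endocrine progenitors, and Heyl had values of 0.46 (adjusted p = 0.332) and 0.33 (adjusted p = 0.477), and Hes1, the best known Notch target, had 0.13 (adjusted p = 0.787).

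The islet label was checked against pan-endocrine genes, which encode granule proteins shared by all islet endocrine cells. Their 12 genes summed to 26486 to 36078 CPM in the controls and 27208 to 36069 CPM in the knockouts, with 0 called lower and 1 called higher. The called gene was Ptprn (log2 value 0.72, SE 0.16, edgeR adjusted p = 0.0318), and Scg2 lay just outside the threshold (0.71, adjusted p = 0.0506). Ptprn kept its call only without knockout replicate 2 among the fits that left out 1 library, its highest adjusted p being 0.119. Relative to the mean log2 CPM of these 12 genes, the difference was -1.51 for St18, -1.45 for Myt1 and -0.56 for Myt1l. The exact permutation p was 0.1 for St18, 0.1 for Myt1 and 0.2 for Myt1l.

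The 8 hormone genes summed to 229434 to 300516 CPM in the controls and 95258 to 147680 CPM in the knockouts, and 3 were called lower (5 with the replicate block). Those were Ppy (-2.38, adjusted p = 0.00694), Pyy (-1.44, adjusted p = 0.0103) and Sst (-0.91, adjusted p = 0.0217), which mark PP, peptide YY-producing and delta cells. Sst lost its call without any 1 of the controls or without knockout replicate 3 (adjusted p of 0.0507 to 0.0741), and Pyy with the acinar covariate (-1.37, adjusted p = 0.0655). Gcg, the alpha cell hormone, had a value of -1.01 (adjusted p = 0.0629). All 8 hormone genes had negative values, with a median of -1.07, beside -1.32 for the Myt family. The part of these cell types in the family's lower levels was not tested.

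Markers of other cell types were compared because the family is also expressed in nerve cells. The 10 peripheral neuron genes summed to 64.0 to 157 CPM in the controls and 207 to 412 CPM in the knockouts. Between the groups this sum was higher where the family was lower, but most of it in each knockout library was Vip. Vip was at 152.0, 138.1 and 309.3 CPM in knockout replicates 1 to 3 and at 31.8, 21.1 and 76.7 CPM in the controls. Among the controls, replicate 2 had the lowest sum (64.0 CPM) and also the lowest St18, Myt1 and Myt1l. Of the 10 genes 8 had a positive log2 value. Of them Vip was called higher (2.21, adjusted p = 0.0328) and Th lower (-0.77, adjusted p = 0.0185). Vip kept its call only without control replicate 3, and Th only without control replicate 2 or knockout replicate 2, among the fits that left out 1 library (adjusted p up to 0.101 and 0.0725). The 10 Schwann cell genes summed to 97.5 to 118 CPM in the controls and 101 to 147 CPM in the knockouts, with 0 called by edgeR, DESeq2 or limma-voom and 2 at an unadjusted p below 0.05. The 10 endothelial genes summed to 680 to 847 CPM against 926 to 1237 CPM, with 4 called higher (6 with the replicate block). The 10 mesenchymal genes summed to 375 to 665 CPM against 605 to 1139 CPM, with 1 called higher (9 with the replicate block). The part of these cell types in the family's levels was not tested.

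Acinar genes, from the digestive enzyme cells around islets, varied most, from 1066 to 3698 CPM in the controls and from 2510 to 15662 CPM in the knockouts. Of 13 tested, 12 had positive values, 0 were called higher and 1, Bhlha15, was called lower (-1.46, adjusted p = 0.0422), and lost its call without control replicate 2 or 3 or knockout replicate 1 or 2 (adjusted p of 0.0774 to 0.122). Knockout replicate 3, the lowest library for Myt1 in CPM, was the highest of all in acinar genes. With the mean acinar level as a covariate, St18 was at -1.34 (adjusted p = 0.0326), and Myt1 was at -1.19 and no longer passed (adjusted p = 0.0771). Ductal genes summed to 434 to 1013 CPM in the controls and 464 to 756 CPM in the knockouts, and immune genes to 134 to 259 CPM and 126 to 172 CPM. Of 8 tested ductal genes 2 were called lower, among them Cldn3 (-2.27, adjusted p = 0.00204), and 1 higher, Spp1 (0.72, adjusted p = 0.0184). Of 9 tested immune genes C1qa, a complement gene, was called lower (-1.08, adjusted p = 0.0266) and Cd68, a macrophage gene, higher (1.61, adjusted p = 0.00889). Cldn3 and Cd68 kept their call when any 1 library was left out. Spp1 lost it without control replicate 2 or 3 or knockout replicate 1 or 3, and C1qa without control replicate 1 or 2 or knockout replicate 1 or 3 (adjusted p up to 0.0825 and 0.0906). No listed marker was at 0 in all libraries, and Mmp7 (ductal) and Cd3e (immune) were under 0.1 CPM.

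**Figure D5:**
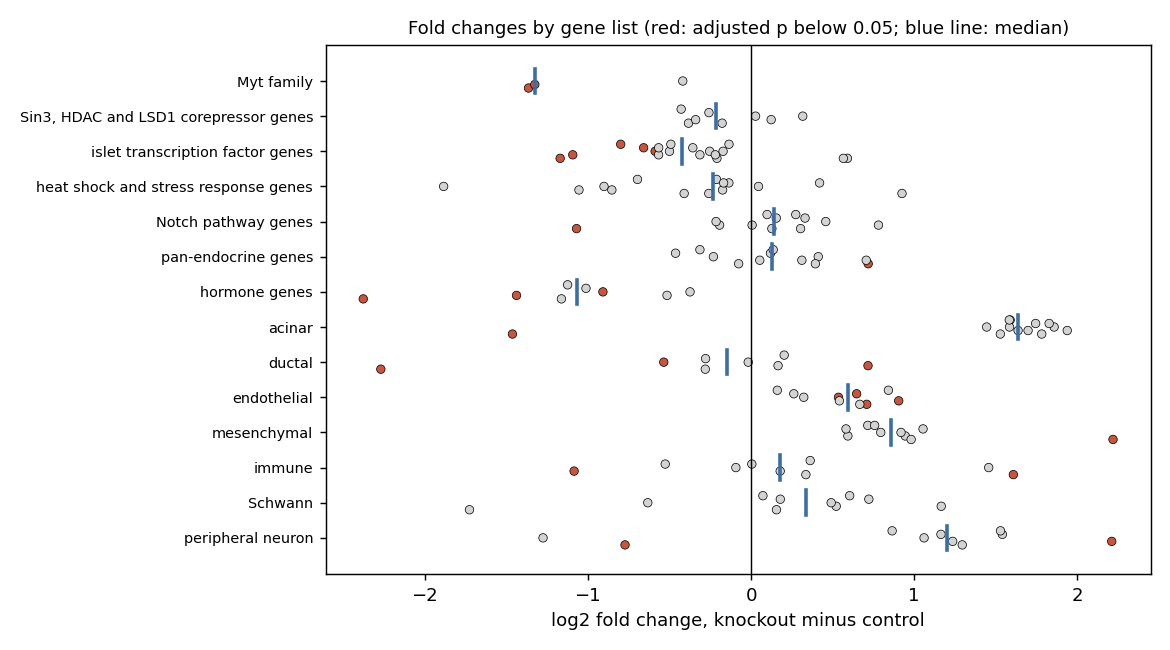
Fitted log2 fold change, knockout minus control (horizontal axis), of every tested gene in each list (vertical axis); red points have an adjusted p below 0.05 and blue lines are list medians. The Myt family median of -1.32 lies to the left of that of the corepressor genes (-0.22), the islet transcription factors (-0.42) and the Notch genes (0.14). The hormone genes have the nearest median (-1.07).

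The genes whose log2 CPM ran most like each member over the 6 libraries were found among 10911 protein-coding genes of at least 5 CPM. For Myt1 they were Pcdh15 (Pearson r 0.999), Cep70, Med25, Rem2 and Nsd1 (0.994). For St18 they were Zfp516 (0.997), Cldn4, Lmx1b, Acvr1c and Nedd4l (0.994), and for Myt1l Zfp395 (0.997), Pyy, Entpd3, Prr14l and St3gal4 (0.986). St18 ranked 21st of these genes for likeness to Myt1, and Myt1 ranked 48th for likeness to St18. Such r values describe 6 libraries that share the difference between groups. Within groups, on deviations from the group means, the nearest genes were Dll1, Baiap2, Atf4, Hmgn3 and Pcdh15 for Myt1. They were Slc20a1, Pde4d, Swap70, Fhl2 and Maml1 for St18, and Cldn6, Ifitm3, Zfp395, Palm and Mill2 for Myt1l, and only Pcdh15 and Zfp395 were near on both measures. Within groups St18 ranked only 328th for likeness to Myt1, and Myt1 511th for likeness to St18.

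Some of these genes differed between groups themselves. Cldn4, a tight junction protein, fell by 2.76 on the log2 scale (SE 0.23, edgeR adjusted p = 0.000942), from 108 to 16.0 CPM. Lmx1b, a homeodomain factor, fell by 1.99 (SE 0.24, adjusted p = 0.00346), and Acvr1c, an activin receptor, by 1.76 (SE 0.25, adjusted p = 0.00582). Pcdh15, a protocadherin, fell by 1.17 (SE 0.22, adjusted p = 0.0172), and Rem2, a small GTPase that acts on calcium channels, by 2.47 (SE 0.49, adjusted p = 0.0189). By contrast Ifitm3, near Myt1l within groups, rose by 1.10 (SE 0.19, adjusted p = 0.0116). Med25 and St3gal4 did not pass (adjusted p = 0.200 and 0.214). Without knockout replicate 3 the calls of Pcdh15 (-1.02, adjusted p = 0.0637), Rem2 (-2.22, adjusted p = 0.0757) and Ifitm3 (1.04, adjusted p = 0.0534) were lost. Without knockout replicate 2 those of Pcdh15 (-1.17, adjusted p = 0.0501) and Rem2 (-2.45, adjusted p = 0.0688) were lost too.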

How the data were processed

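The authors deposited, per the file headers, a Salmon table per library with estimated counts, TPM and transcript lengths in bases, and their comparison of the groups, with a log2 fold change, p-values and a mean signal (baseMean) for each gene. The submitters' processing notes name Trimmomatic, Salmon, DESeq2, GRCm38 and mm10. Versions, the annotation and settings were not given in the sources used here. Per the labels' protocols, poly(A) RNA was taken from 1000 ng of total RNA of 100 to 200 islets per mouse, with a strand-keeping kit and 9 amplification cycles.

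Here, 139852 of 140948 transcripts (99.6 to 99.7% of reads) were matched by identifier to GENCODE vM21. Counts were summed per gene and rounded, filtered with filterByExpr (minimum count 10), scaled by TMM and tested with edgeR 4.0.16 in R 4.3.3, with group as the only term and Benjamini-Hochberg adjustment. The common biological coefficient of variation was 0.26. Transcripts were fitted likewise on their own counts. Shares and differences between members used two-sided exact permutation over libraries (Python 3.11.15). DESeq2 1.42.0 and limma 3.58.1 served as alternatives. Starts within 500 bases on the same strand were joined. The procedure was tested on simulated data with known changes. Of 16034 genes, 100 were changed 2-fold and 99 were changed 4-fold. The procedure recovered 18% of the 2-fold and 81.8% of the 4-fold changes, and 13.2% of its calls were unchanged genes. Of 38649 transcripts, 90 were changed 4-fold and 84 were changed 16-fold. The procedure recovered 15.6% of the 4-fold and 46.4% of the 16-fold changes, and 10.2% of its calls were unchanged transcripts. Whether the gene rates hold at a larger share of changed genes was not tested. In the islet data 1634 of 16430 tested genes were called. A gene or transcript that did not pass may still differ, and some calls may be false. log2 CPM used a prior count of 2.

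Members and the 14 gene lists were chosen with earlier results of these data known. Named genes were the members, Dpy30, the corepressors, up to 4 members of each other list with the smallest p, and the 5 genes most like each member on each measure; other genes were named after their values were seen. Same-numbered libraries correlated in their deviations from group means at 0.427, 0.135 and 0.196, and pairs of different numbers at -0.318 to 0.14. By the rule of every pair above 0.1 same-numbered libraries count as paired, though nothing in the labels tells what these numbers stand for. The main fit and the exact permutations did not use this pairing, and only the replicate block did. A further deposited gene table, of values scaled between libraries, was not used here, and the values of some list genes are not reported here.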

Additional observations from a re-analysis of the deposited data

How the results depend on the processing

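St18 kept its sign and its call under the 14 alternatives with an adjusted p (-1.49 to -1.25 with 1 library left out), and Myt1 kept its sign in all of them. Myt1 lost its call with the acinar covariate (-1.19) and, among the fits that left out 1 library (-1.47 to -1.09), without knockout replicate 3. Myt1l gained a call with the transcript length offset (-0.64), was at -0.42 with the replicate block, at -0.56 relative to the pan-endocrine genes (an alternative added after the data were seen), and at -0.49 to -0.36 with 1 library left out. The cause of these differences was not tested. The 1634 called genes became 2633 by DESeq2, 631 with the acinar covariate, 2430 with the replicate block and 737 to 1330 with 1 library left out. The 25 called list genes became 39 without the filter on low counts, 42 by DESeq2, 41 with the replicate block, 7 with the acinar covariate and 12 to 26 with 1 library left out. The 2 called family transcripts became 0 with the replicate block and 0 with any 1 library left out, and the replicate block changed the call of no family gene. With 1 library left out, Neurog3, at -0.22, ran from -0.50 to 0.0290, turning without knockout replicate 1, and Hes1, at 0.13, from -0.0434 to 0.30, turning without control replicate 2. Sin3a, at 0.03, turned to -0.0119 with the length offset and ran from -0.0258 to 0.0674 with 1 library left out, and the transcript Myt1l-206, at 0.13, ran from -0.26 to 0.60, turning to -0.15 without control replicate 1 and -0.26 without knockout replicate 2. With 3 mice per group an exact permutation test cannot go below 0.1, and reads of transcripts that share most of their sequence are split by estimate.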
